A study of Rattus norvegicus with 10 samples.

Results

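Gfap and Mbp, a pair of genes that mark glial cells, were followed by RNA-seq in 10 Sprague Dawley rats before birth, at embryonic day 21, with 1 library per fetus from the right cerebral cortex. Both were chosen by their Ensembl identifiers and chromosomes, and 2 of the 2 identifiers were found among the 26404 gene features of the files. The 5 fetuses of the oxytocin group came from 5 dams given oxytocin intravenously at 100 mcg per kg, and the 5 fetuses of the saline group from 5 other dams given an equal volume of saline. The cortex was taken 24 h later in both groups, so each fetus is an independent replicate at the level of the dam, and the fetal sex was not analysed here. Oxytocin is a peptide hormone that makes the uterus contract. The comparison asked what differs in the fetal cortex 24 h after the dam was given it, and contractions were not among the values read here.

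Gfap encodes glial fibrillary acidic protein, an intermediate filament of astrocytes that is also made by some radial glia, and it is widely used as a marker of maturing and of reactive astrocytes. Mbp encodes myelin basic protein, which compacts the layers of the myelin sheath and is made by oligodendrocytes as they mature. In the rat cortex most astrocytes arise around birth and most myelin is laid down after it, so both genes are read here at an early point of their developmental rise. In RNA from whole tissue, more or fewer cells of a type and more or less RNA per cell cannot be told apart. The level of either gene therefore also depends on which layers and how much white matter a dissected piece holds.

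Gfap (ENSRNOG00000002919) lies on the minus strand of chromosome 10 at chr10:90763149-90771847 in the files, whose build is Rnor_5.0 per the submitters' processing notes. Its 10 exons sum to 2814 bases, of which 1437 belong to the last exon. Mbp (ENSRNOG00000016516) lies on the plus strand of chromosome 18 at chr18:78473296-78504226, with 7 exons that sum to 2160 bases, 1540 of them in the last exon. No other feature of the files overlapped the span of either gene (0 for each), so reads within these exons had no second listed gene to be assigned to. The nearest feature to Gfap lies on the opposite strand and ends 562 bases from the 3′ end of Gfap, so that the 3′ ends of both face each other, and the handling of strand is not given in the sources used here.

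By its length, the Mbp feature matches the downstream part of the Mbp locus. RefSeq's entry for Mbp in the assembly GRCr8 is 110523 bases long and includes an upstream start that serves the Golli transcripts, which share exons with classic Mbp and are also made outside the oligodendrocyte lineage. The deposited feature spans 30931 bases, against 30930 bases from RefSeq's second Mbp start to the end of the gene. For Gfap the feature spans 8699 bases and the RefSeq gene 8675 bases. The builds were compared by span length alone, without placing the features on GRCr8. If the feature is the downstream unit, reads from the upstream Golli exons were not counted under Mbp, whereas reads from exons that Golli and classic transcripts share were.

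The 250 bases before RefSeq's Gfap start and before its second Mbp start are shown, since these are the RefSeq starts whose distance to the end of the gene is nearest to the span of the counted features; the counted features may begin at other bases. They are RefSeq's GRCr8 sequences, given 5′ to 3′ on the strand of the gene. Capitals mark AATAAA, a motif chosen after the sequence had been read.
Gfap, chr10:88361662-88361911, minus strand: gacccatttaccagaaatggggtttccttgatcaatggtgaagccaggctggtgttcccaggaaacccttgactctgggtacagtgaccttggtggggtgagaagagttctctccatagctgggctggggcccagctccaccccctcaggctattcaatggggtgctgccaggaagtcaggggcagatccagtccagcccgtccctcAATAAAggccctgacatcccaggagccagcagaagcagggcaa
Mbp, second start, chr18:78209995-78210244, plus strand: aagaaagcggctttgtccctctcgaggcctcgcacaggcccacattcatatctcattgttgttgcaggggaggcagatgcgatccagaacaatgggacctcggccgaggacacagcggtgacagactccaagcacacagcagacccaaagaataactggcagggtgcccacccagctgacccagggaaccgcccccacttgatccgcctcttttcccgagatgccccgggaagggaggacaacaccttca

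On both strands of these windows TATAAA and CCAAT were searched, and neither window held one. AATAAA was found once in the Gfap window, from 43 to 38 bases before the start, and not in the Mbp window. Among 33469 RefSeq windows of the same length, 19.5% held AATAAA, 12.9% held TATAAA and 34.0% held CCAAT, so a window with or without one of them is common. These matches describe letters only.

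The oxytocin libraries held between 18723390 and 30404127 assigned counts, and the saline libraries between 18555172 and 20776414. The share of counts on the mitochondrial chromosome did not overlap between the groups, from 6.31% to 6.61% after oxytocin and from 5.17% to 6.00% after saline, and its part in the results on Gfap and Mbp was not tested. On the first principal component of the nuclear features, which held 28.2% of the variance, oxytocin replicate 1 and saline replicates 1 and 4 stood apart, with scores from 18.8 to 21.9 where the other 7 libraries had scores below 0. Results are therefore also given without these 3 libraries, an alternative added after the data were seen that leaves 4 oxytocin and 3 saline libraries. Replicate numbers only name the libraries in accession order.

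Levels are given as deposited CPM (counts of a gene per 1000000 assigned counts), as deposited RPKM (CPM per kilobase of exon) where genes are compared, or as log2 CPM after TMM scaling. Other markers of cortical cell types were not analysed here, because the files carry identifiers without gene names. The tissue label was therefore not checked against the expression values.

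Gfap was detected in every fetus and stood higher on average after oxytocin, at 47.5 ± 7.56 CPM, than after saline, at 33.5 ± 10.3 CPM (SD, n = 5 each). The astrocyte gene was read from 464 to 1706 counts per library. The oxytocin replicates 1 to 5 had 56.1, 39.0, 41.6, 46.2 and 54.4 CPM of Gfap. The saline replicates 1 to 5 had 40.8, 28.0, 25.9, 24.8 and 47.9 CPM of Gfap. The groups overlapped, since saline replicates 1 and 5 lay within the range of the oxytocin group, and 0.701% of the tested features had groups without overlap. The other 3 saline libraries lay below all oxytocin libraries, and 2 oxytocin libraries, replicates 1 and 5, lay above all saline libraries. Oxytocin replicate 1, with the highest Gfap, was also the deepest library, while oxytocin replicate 5, the next highest, was the shallowest of its group.

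**Figure D1:**
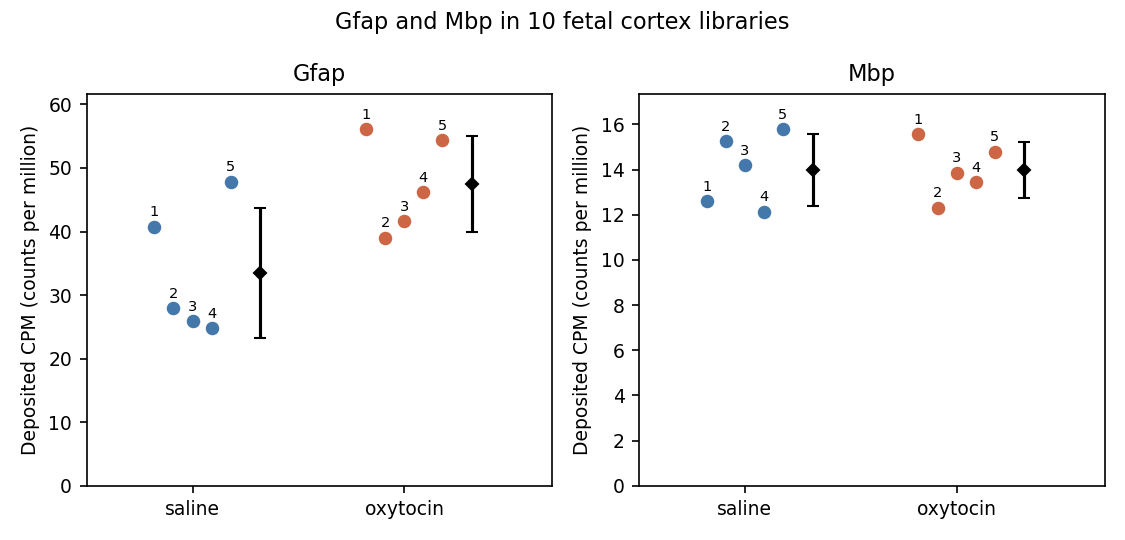
Deposited CPM (counts per 1000000 assigned counts, axis from 0) of Gfap at left and Mbp at right for each of the 10 libraries, numbered by replicate, with saline in blue and oxytocin in orange; diamonds and bars are the mean ± SD of 5 libraries. Saline replicates 2, 3 and 4 lie at 24.8 to 28.0 CPM of Gfap, below the lowest oxytocin library at 39.0, whereas the Mbp values of both groups cover nearly the same range.

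The difference in Gfap did not pass the threshold once all genes were considered. Its log2 fold change of oxytocin against saline was 0.53 ± 0.17 (SE), which is 44.7% higher with a 95% interval from 11.5% to 87.7% higher, before any adjustment for the number of genes. In edgeR's quasi-likelihood test the unadjusted p was 0.00902 and the Benjamini-Hochberg adjusted p over 14400 tested features was 0.9997. By size the Gfap change exceeded that of 99.1% of the tested features, and by p-value it ranked 81 among them. The same fit called 0% of the features at an adjusted p of 0.05 (0 of 14400) and gave 3.57% of them an unadjusted p under 0.05 (514 features), with 1.93% called on the higher side (278 features). Limma called 0 features as well. DESeq2 called 11, but its filter on the mean count kept 2193 features and gave neither Gfap nor Mbp an adjusted p. Without that filter DESeq2 called 6 features, and neither gene was among them.

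Mbp, the myelin gene, was nearly level between the groups, at 14.0 ± 1.25 CPM after oxytocin and 14.0 ± 1.6 CPM after saline (SD, n = 5 each). It was read from 227 to 473 counts per library. The oxytocin replicates 1 to 5 had 15.6, 12.3, 13.9, 13.4 and 14.8 CPM of Mbp. The saline replicates 1 to 5 had 12.6, 15.3, 14.2, 12.1 and 15.8 CPM of Mbp. High and low libraries were found in both groups, and the lowest and the highest of all 10 were both saline libraries. Oxytocin against saline gave a log2 fold change of 0.03 ± 0.088 (SE) for Mbp (edgeR's quasi-likelihood test, unadjusted p = 0.763, adjusted p = 0.9997). Its 95% interval ran from 0.893-fold to 1.16-fold, which includes no change. The sign of this small change turned in 3 of the 10 fits that left out 1 library, those without oxytocin replicate 1, saline replicate 1 or saline replicate 4, with values down to -0.017. These are the 3 libraries that stood apart on the first principal component, and without all of them the log2 fold change of Mbp was -0.12 (edgeR's quasi-likelihood test, unadjusted p = 0.213, adjusted p = 0.966).

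**Figure D2:**
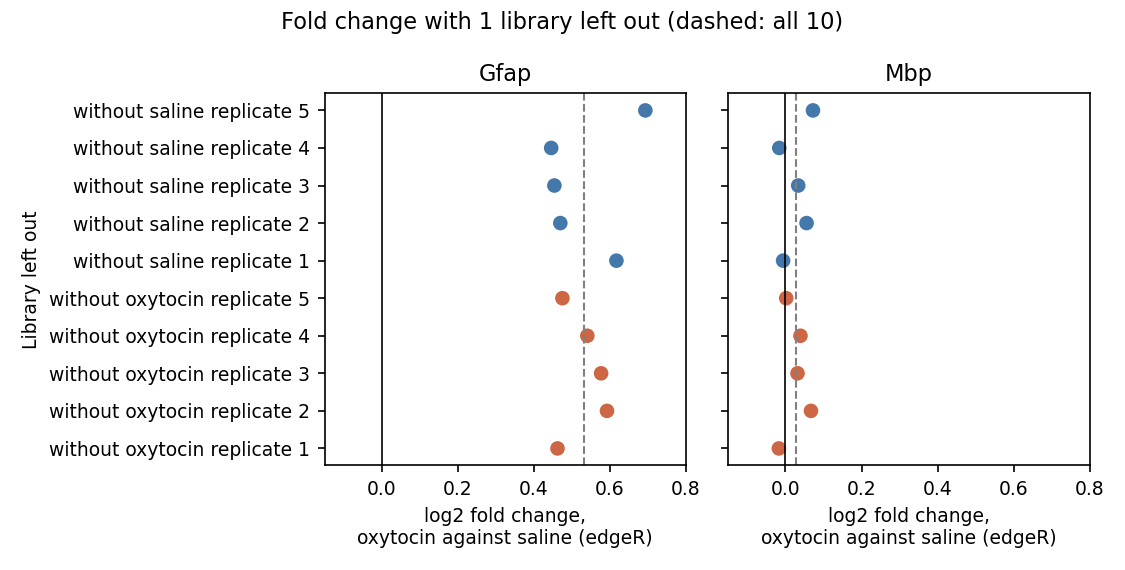
Log2 fold change of oxytocin against saline in edgeR's quasi-likelihood fit when the library named on the vertical axis is left out, for Gfap at left and Mbp at right; the dashed line is the value with all 10 libraries and the solid line marks 0. Gfap runs from 0.45 to 0.69, with the highest value when saline replicate 5 is left out, and Mbp from -0.017 to 0.072, on both sides of 0.

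Leaving out 1 library kept the Gfap change above 0 in each of the 10 fits, with log2 fold changes from 0.45 to 0.69 and adjusted p from 0.646 to 0.9999 in edgeR's quasi-likelihood test. The largest came without saline replicate 5, the saline library with the most Gfap, and the smallest without saline replicate 4, the one with the least. Without the 3 libraries apart on the first principal component it was 0.45 (edgeR's quasi-likelihood test, unadjusted p = 0.028, adjusted p = 0.947).

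Per kilobase of exon, Gfap was the more abundant of the pair in 10 of 10 libraries. Deposited RPKM of Gfap was 16.9 ± 2.69 after oxytocin and 11.9 ± 3.66 after saline, and that of Mbp was 6.48 ± 0.579 and 6.48 ± 0.741 (SD, n = 5 each). In order of level, Gfap after oxytocin came first, then Gfap after saline, which differed by less than the summed SDs, and then Mbp in the 2 groups, which could not be ordered. Gfap lay above 68.9% to 81.1% of all listed features by RPKM, depending on the library, and Mbp above 63.4% to 66.4%. These shares include features without a count, since 17295 to 18013 of the 26404 listed features had a count in a library. Among the 14400 tested features, by mean log2 CPM without regard to length, Gfap lay above 62.6% and Mbp above 38.9%. The RPKM of Gfap was 2.31 to 2.82 times that of Mbp in the oxytocin libraries. In the saline libraries it was 1.40 to 2.49 times that of Mbp, with replicates 2, 3 and 4 between 1.40 and 1.57.

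The ratio of Mbp to Gfap within a library, which does not depend on the scaling between libraries, averaged lower after oxytocin, by a difference that passed 0.05 before adjustment and not after it. The log2 ratio of the CPM values was -1.75 ± 0.12 in the libraries of oxytocin-exposed fetuses and -1.21 ± 0.40 in those of saline controls (SD, n = 5 each), a difference of -0.54. An exact two-sided permutation test gave p = 0.0397, where the smallest value the design allows is 0.00794, and p = 0.0595 after adjustment over the 3 permutation tests made on this pair with all 10 libraries and the main settings (this ratio, Pearson's r and Spearman's rho); values under other settings are unadjusted. The unadjusted p rose to 0.0794 in an exact permutation test when any one of oxytocin replicates 1, 4 and 5 or saline replicates 2, 3 and 4 was left out, with differences from -0.53 to -0.45. Without the 3 libraries apart on the first principal component the difference was -0.61 (exact permutation p = 0.114, where 0.0571 is the smallest possible). Since Mbp was nearly level, the difference in the ratio is close in size to the change of Gfap alone. That change had an adjusted p of 0.9997 over all tested features in edgeR's quasi-likelihood test. The pair and the tests were chosen with earlier results of these data known, which the adjustment over 3 tests does not cover.

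The fetuses of a group differed far more in Gfap than in Mbp. The pooled SD within groups was 0.34 log2 CPM for Gfap, larger than for 89.5% of the 14400 tested features, and 0.14 log2 CPM for Mbp, larger than for 56.4% of them. The median over all tested features was 0.13 log2 CPM. Counting error alone would give an SD of 0.052 log2 units for Gfap and 0.085 for Mbp at their read counts. The observed SD was thus 6.56 times the counting error for Gfap and 1.68 times for Mbp, so a larger part of the Mbp spread can be counting noise.

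Features of low abundance spread more, and edgeR's dispersion trend takes this into account. The biological coefficient of variation is the relative spread between fetuses beyond counting error. Its estimate in edgeR for a gene, which is itself drawn toward the trend, was 19.1% for Gfap where the trend for its abundance was 8.25%. For Mbp it was 9.35%, below the trend value of 11.1%. Within groups, the SD of Gfap was 0.42 log2 CPM after saline and 0.23 after oxytocin, while that of Mbp was 0.15 and 0.13, and the difference in spread between the groups was not tested. Without saline replicate 5 the pooled SD of Gfap was 0.28 log2 CPM, the lowest value over the 10 libraries left out in turn. Without the 3 libraries apart on the first principal component the pooled SD was 0.35 log2 CPM for Gfap and 0.099 for Mbp.

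**Figure D3:**
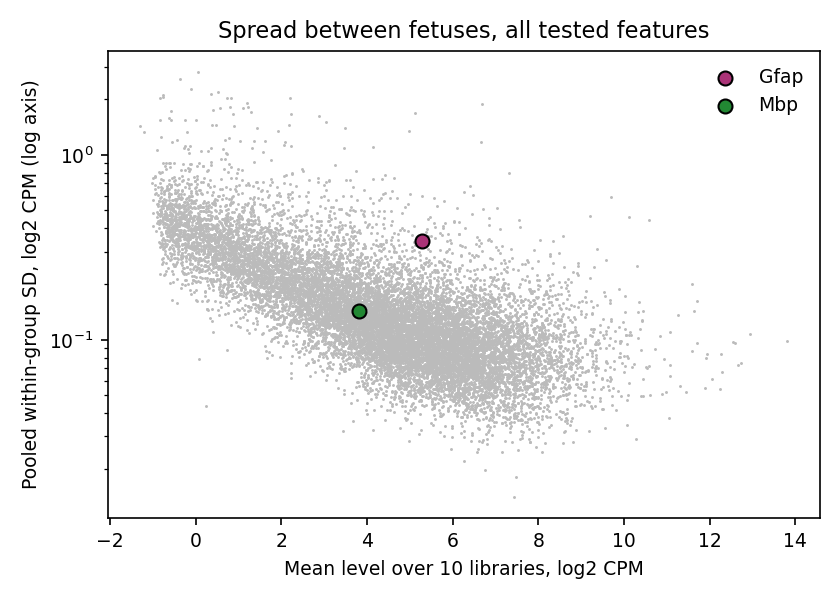
Pooled within-group SD of log2 CPM (log axis) against the mean log2 CPM over 10 libraries for the 14400 tested features in grey, with Gfap in purple and Mbp in green. Gfap, at an SD of 0.34, lies above most features of its level, whereas Mbp, at 0.14, lies within the main band.

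No relation between Gfap and Mbp across fetuses passed 0.05 after adjustment. Over the 10 libraries Pearson's r of the log2 CPM values was 0.44 (permutation p = 0.203, adjusted p = 0.203) and Spearman's rho was 0.68 (permutation p = 0.0344, adjusted p = 0.0595), with adjustment over the same 3 tests. Without saline replicates 3 and 4, the libraries farthest from the median Gfap level, r was 0.29 and rho 0.71 over 8 libraries (exact permutation p = 0.517 and 0.0576). With the mean of each treatment group removed, r was 0.50 and rho 0.55 (permutation p = 0.142 and 0.105), and without the 3 libraries apart on the first principal component r was 0.096 and rho 0.39 (exact permutation p = 0.806 and 0.396). The unadjusted p of rho also missed 0.05 when oxytocin replicate 1 or 5 or saline replicate 4 or 5 was left out, at 0.111 to 0.122 in permutation tests.

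With the Gfap values put in order, the largest gap lay between 28.0 and 39.0 CPM, with 3 libraries below it and 7 above. Any set of values has a largest gap, and this one was not tested. All libraries below it belonged to the saline group. Saline replicates 2, 3 and 4, below the gap, had Mbp from 12.1 to 15.3 CPM, which covers most of the range of the other libraries. The libraries low in Gfap were therefore not uniformly low in Mbp.

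**Figure D4:**
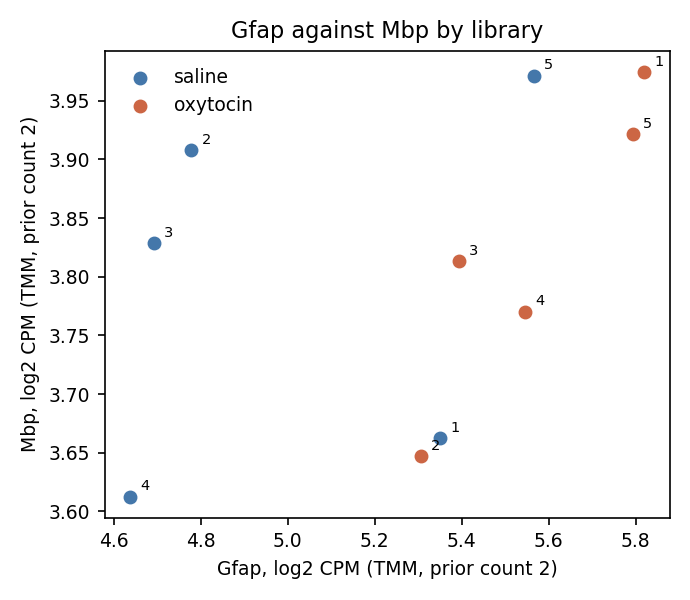
Mbp against Gfap, both in log2 CPM after TMM scaling, for the 10 libraries numbered by replicate, saline in blue and oxytocin in orange. Saline replicates 2, 3 and 4 stand at the left with low Gfap and varied Mbp, and over all 10 libraries r was 0.44.

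Other features tracked each gene more closely than the pair tracked each other. The feature most like Gfap over the 10 libraries was ENSRNOG00000011123 (chr8:76497582-76554483, plus strand), with r = 0.95 and rho = 0.89 and from 593 to 1143 counts per library. It was followed by ENSRNOG00000021802 (chr5:177098680-177099967, minus strand), with r = 0.95 and rho = 0.89 and only 38 to 91 counts. The feature most like Mbp was ENSRNOG00000010645 (chr15:28094062-28106276, plus strand), with r = 0.96 and rho = 0.95 and 65 to 153 counts per library. Next came ENSRNOG00000016902 (chr17:87911175-87913029, plus strand), with r = 0.92 and rho = 0.98, which rests on 7 to 22 counts. With group means removed, these 4 coefficients were 0.92, 0.92, 0.96 and 0.93.

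Of the 14399 other features, 14 had r above 0.9 with Gfap and 8 had r under -0.9, against 3 and 1 for Mbp. The coefficient between Gfap and Mbp was exceeded by 14.5% of the other features for Gfap and by 10.7% for Mbp. The libraries, their depth and the scaling are shared by all of these features, the highest coefficients were picked from many, and none of the 4 features passed the threshold between oxytocin and saline (edgeR's quasi-likelihood test, adjusted p = 0.9997 for each).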

How the data were processed

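RNA was selected with oligo-dT per the labels. The submitters' processing notes name bcl2fastq, STAR 2.0.4b, Subread, featureCounts 1.45 and the build Rnor_5.0, and the settings for strand and multiply mapped reads are not given in the sources used here. The deposited counts are raw whole numbers per gene. The deposited CPM was checked to equal the count per 1000000 assigned counts, and the deposited RPKM to equal that CPM per kilobase of listed length.

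Counts were filtered with filterByExpr, scaled with TMM and tested with edgeR 4.0.16 (glmQLFit in its default mode, which is the legacy mode) in R 4.3.3 on the 10 libraries together with treatment as the only term; p-values were adjusted over 14400 features by the Benjamini-Hochberg method, with a threshold of 0.05. Standard errors are the log2 fold change divided by the square root of F. Log2 CPM used a prior count of 2. Permutation tests used SciPy 1.17.1, exact for group differences and for correlations over 7 or 8 libraries, and with 100000 resamples for correlations over more. Alternatives used DESeq2 1.42.0 and limma 3.58.1, other scalings and filters, and each library left out in turn. The tests were tried on simulated data. Pairs of libraries within a group gave chi-square values of 4.14 to 19.2 per degree of freedom over features with at least 20 counts, so none was a duplicate.

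The 2 genes, the rule for like features (the 2 with the highest Pearson r for each gene) and the tests were chosen with earlier results of these data known. Gene lists planned by symbol were not analysed, because 0 of 26404 identifiers could be paired with a symbol; the names Gfap and Mbp came with the identifiers.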

Additional observations from a re-analysis of the deposited data

How the results depend on the processing

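Over 8 alternatives with all libraries, the log2 fold change of Gfap stayed between 0.51 and 0.57 (adjusted p from 0.94 to 0.9999 in edgeR, DESeq2 and limma) and that of Mbp between 0.00024, with scaling by library size alone, and 0.030. Without one library each, Gfap ran from 0.446 to 0.693 and Mbp from -0.0174 to 0.0722, below 0 in 3 of 10 fits. The count of features past an adjusted p of 0.05 was 11 with DESeq2 and 6 with DESeq2 without independent filtering, and 0 in the other 7 alternatives with all libraries and in the 10 fits without one library, where 420 to 841 features had an unadjusted p under 0.05. DESeq2's independent filtering left 2193 features and gave neither gene an adjusted p. The difference in the log2 ratio of Mbp to Gfap was -0.536 to -0.539 under other prior counts and raw counts (exact permutation p = 0.0397 in each), and -0.658 to -0.452 without one library each, past 0.05 in 4 of 10 exact permutation tests. Pearson's r of Gfap with Mbp ran from 0.233 to 0.613 without one library each, and was 0.378 with scaling by library size alone (rho 0.588, permutation p = 0.083); Spearman's rho ran from 0.567 to 0.8 without one library each. Without one library each, the within-group SD ran from 0.277 to 0.364 log2 CPM for Gfap and from 0.131 to 0.152 for Mbp, and without the 3 libraries named next that of Mbp was 0.0989. Without the 3 libraries apart on the first principal component, Mbp turned to -0.117, the ratio difference was -0.612 (exact permutation p = 0.114, which with the libraries left cannot go below 0.0571), and 0 features passed in edgeR (759 at an unadjusted p under 0.05). That alternative, DESeq2 without independent filtering and edgeR's other quasi-likelihood mode were added after seeing the data, and a planned fit in edgeR's legacy mode is the same as the fit reported. In 6 checks of Gfap, Mbp and their ratio by group, no single library's gap to the next exceeded Dixon's critical value of 0.71 of the range (highest 0.376), a check that cannot see 2 libraries lying together. Depth limits Mbp more than Gfap, with as few as 227 counts. No paired analysis was possible because the replicate numbers were given here in accession order, not by the labels, and the fetuses come from different dams.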
